A study of Mus musculus with 27 samples.

Results

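The genes described here are 9 regulators of cytokine mRNA decay, followed in mouse macrophages over 4 h of stimulation with bacterial lipopolysaccharide (LPS) or the cytokine interleukin-4 (IL-4). They were taken by symbol, as the rows named Zfp36, Zfp36l1, Zfp36l2, Zc3h12a, Zc3h12c, Rc3h1, Rc3h2, N4bp1 and Elavl1, from a table of 45070 genes. The list of symbols was made with earlier results of these data known. All 9 were among the 13901 genes that passed the filter on low values (at least 10 in at least 3 of 27 samples). The cells were bone marrow-derived macrophages (BMDMs), primary cells grown from the marrow of young male wild-type C57/BL6 mice. Every group, the untreated one included, was kept for 1 h with the vehicle DMSO. Cells were then left untreated, or received LPS at 10 ng/ml or IL-4 at 10 ng/ml for 0.5, 1, 2 or 4 h, which gives 9 groups of 3 replicates. The library came from chromatin-associated RNA, a fraction rich in nascent transcripts. A value is therefore closer to ongoing transcription than to the mRNA pool that these proteins act on.

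Macrophages respond to bacterial LPS through Toll-like receptor 4 with a burst of cytokine mRNAs, many of which carry AU-rich elements in the 3′ untranslated region and are short-lived. The ZFP36 family of zinc-finger proteins (TTP, encoded by Zfp36, with Zfp36l1 and Zfp36l2) binds such elements and recruits the CCR4-NOT deadenylase, whereas HuR, encoded by Elavl1, binds similar sequences and protects the transcript. Stem-loops in the same region are bound by the Roquin proteins (Rc3h1, Rc3h2) and cut by the endonuclease Regnase-1 (Zc3h12a), of which Zc3h12c encodes a paralog, and N4bp1 encodes another RNA-cutting protein that restrains cytokine output. IL-4 acts through STAT6 and drives macrophages towards the alternative, tissue-repair programme.

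Over the LPS course, all 9 genes changed, in a background of 87.6% of the tested genes (limma, moderated F test, adjusted p under 0.05). Zc3h12c and Zfp36 rose 49.0-fold and 13.0-fold within 0.5 h, N4bp1 climbed to 12.2-fold at 2 h, and Zc3h12a reached 5.59-fold at 1 h. Zfp36l1 and Zfp36l2 moved the other way and were 17.3-fold and 30.0-fold below untreated at 4 h. With IL-4, 6 of the 9 genes changed over the course, against 40.3% of the tested genes. Zc3h12a rose 3.42-fold to 4.19-fold after IL-4, N4bp1 and Zc3h12c rose by less than after LPS, and Zfp36l2 fell 5.34-fold at 0.5 h and then recovered. All values are the authors' normalised read counts, and fold changes given as folds are ratios of group means of these values.

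The plot of values by sample gives each gene in every library.

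**Figure D1:**
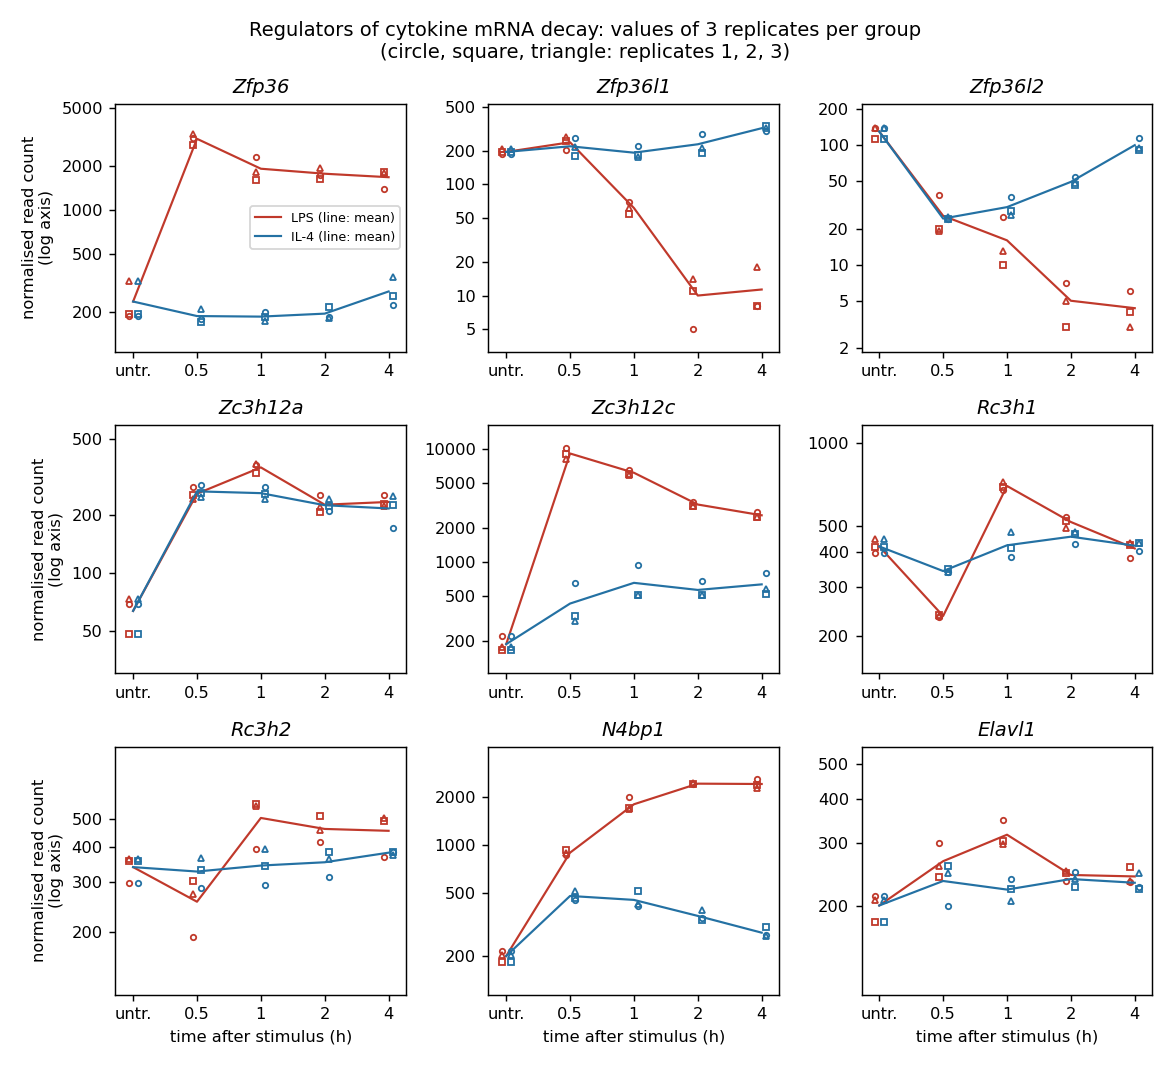
Normalised read counts of the 9 genes (log axis, a range of its own in each panel) in untreated cells and after 0.5, 1, 2 and 4 h of LPS (red) or IL-4 (blue). Circles, squares and triangles are replicates 1, 2 and 3 and lines join the group means. Zfp36 and Zc3h12c jump at 0.5 h of LPS, with 2774 to 3331 and 8194 to 10187, Zfp36l1 and Zfp36l2 sink to 3 to 18 by 4 h of LPS, and the red and blue points of Zc3h12a overlap or lie close at every time but 1 h, where LPS gave 330 to 367 and IL-4 243 to 280.

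Several measurements bear on all of the genes. The normalised values summed to 3571492 to 4058199 in the 12 LPS samples and to 2469768 to 2790981 in the 15 others, and they carry no record of sequencing depth. On this scale the median tested gene moved by -0.24, -0.30, -0.29 and -0.26 (log2) along the LPS course and by -0.02 to 0.02 with IL-4. Rescaling every sample to the same total lowers each LPS difference from untreated further, to a median of -0.73 to -0.91, and a direction that turned under it is given beside the result. Of the genes called after LPS, 36.3% to 40.8% were higher across the 4 times, 48.8% to 49.6% after median-of-ratios rescaling and 18.3% to 23.7% at equal totals. Replicate 1 stood apart from the others in every group: the SD of log2 ratios between replicates was 0.475 to 0.600 for replicates 1 and 2 and 0.211 to 0.309 for replicates 2 and 3. The sources do not say that the replicates came from separate cultures or animals, so p-values measure the spread between these samples. In bulk samples, fewer cells of a type and less RNA per cell cannot be told apart.

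The macrophage label held in these data. All 8 macrophage markers were present in every untreated sample at 45 or more (the lowest was Fcgr1, an Fc receptor), and they summed to 10027 to 11141. Of 26 markers of T, B, dendritic, mast and erythroid cells, neutrophils and fibroblasts, 11 never exceeded a value of 3 and 4 were at 0 in all 27 samples. The largest belonged to fibroblasts, Col1a1 at 8 to 95 and Col1a2 at 16 to 128, and both were highest in replicate 1 of every group. The dendritic cell list summed to 47 to 98 at 1 h of LPS, against 6 to 9 in untreated cells, almost all of it from Zbtb46. The part of these markers in the results was not tested.

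A sequence feature of the pathway was looked for in the genes themselves. The 3′ untranslated regions (GENCODE M21 transcripts, GRCm38) were searched for TATTTAT, the DNA form of the core AU-rich element that ZFP36 proteins bind. At least 1 copy was found in 26.1% of 20713 genes and at least 3 copies in 3.76%. The rate over all regions was 0.315 per kilobase, and their median length was 849 bases. Tnf, the textbook target, held 8 copies in 764 bases. Among the regulators themselves, Zfp36 held 3 in 774 bases, Zfp36l1 3 in 1835, Zfp36l2 3 in 1822, Rc3h2 3 in 5160, Rc3h1 2 in 7181, Zc3h12c 2 in 4062 and Elavl1 8 in 4218. The letters were not found in Zc3h12a or N4bp1, whose regions were 856 and 3548 bases long. Copies that overlap, as in Tnf and Elavl1, were each counted. The 8 copies of Elavl1 all start at bases 3795 to 3841 of its region. Per kilobase the rates were 3.88 for Zfp36, 1.63 for Zfp36l1, 1.65 for Zfp36l2 and 1.9 for Elavl1. Those of Rc3h2 (0.581), Zc3h12c (0.492) and Rc3h1 (0.279) lay nearer to the rate over all regions, and that of Rc3h1 was below it. Binding to these letters was not tested. Windows of 30 bases with the element in capitals are shown for Tnf and for each of the regulators that carry it. All are on the strand of the gene, 5′ to 3′. They lie at chr17:35199677-35199706 for Tnf, chr7:28376965-28376994 for Zfp36, chr12:80108421-80108450 for Zfp36l1, chr17:84184913-84184942 for Zfp36l2, chr1:160970043-160970072 for Rc3h1, chr2:37374755-37374784 for Rc3h2, chr9:52114861-52114890 for Zc3h12c and chr8:4285783-4285812 for Elavl1, Rc3h1 on the plus strand and the others on the minus strand.
Tnf: TATTTATTATTTATTTATTATTTATTTATt
Zfp36: agtgggcccttTATTTATgacgacttTATT
Zfp36l1: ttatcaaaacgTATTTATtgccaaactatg
Zfp36l2: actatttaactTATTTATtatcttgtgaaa
Rc3h1: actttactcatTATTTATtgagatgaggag
Rc3h2: tccagctgcttTATTTATctttttcattgg
Zc3h12c: gctataatcatTATTTATaggaacaaagat
Elavl1: tgaaaatTATTTATTTATTTATTTATtttT

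Because the genes were measured on chromatin, their promoters were also read. RefSeq promoters (GRCm38.p6, 250 bases before to 50 after the start site) were matched for 8 of the 9 genes, Zc3h12c with 2 entries, and searched on both strands for 8 motifs. Zfp36 was the only one with a serum response element core (the CArG box, in 1.63% of all 32851 promoters), an EGR site (GCGNGGGCG, 5.55%) or a GAS element (TTCNNNGAA, 8.30%). An AP-1 site (TGANTCA, 7.81%) was found in Rc3h1 at -133 to -127 and in Zfp36l1 at -129 to -123 from the start site. The κB motif (4.51%), the CRE (TGACGTCA, 1.79%), the STAT6 motif (TTCNNNNGAA, 6.95%) and the ISRE (GAAANNGAAA, 3.44%) were found in 0 of the 9 windows. A match is a run of letters, not a bound site. The stretch of the Zfp36 promoter that holds its 3 matches, in capitals in the order EGR, CArG and GAS, runs over the 113 bases before the start site at chr7:28379229-28379341 on the minus strand, and is shown because this gene was the only one of its family to rise after LPS.
Zfp36 promoter: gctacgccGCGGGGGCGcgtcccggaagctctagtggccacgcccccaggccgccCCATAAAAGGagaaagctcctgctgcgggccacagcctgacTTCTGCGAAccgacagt

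The ZFP36 family split under LPS. Zfp36 (ENSMUSG00000044786, 2 exons at chr7:28376784-28379228) encodes TTP, the best-studied of the AU-rich element binders. Its normalised read count in replicates 1, 2 and 3 was 188, 194 and 328 in untreated cells, 3091, 2774 and 3331 at 0.5 h of LPS, 2305, 1612 and 1825 at 1 h, 1732, 1636 and 1939 after 2 h, and 1397, 1827 and 1800 at 4 h. Every LPS sample lay above every untreated one. The means were 237 ± 79.2 in untreated cells and 3065 ± 279 at 0.5 h (SD, n = 3), and the log2 changes of 3.73, 3.04, 2.94 and 2.86 (SE 0.19) had adjusted p-values of 4.86e-10, 2.79e-09, 2.52e-09 and 3.44e-09. From its peak at 0.5 h the gene fell by 0.69 (log2) to 1 h (adjusted p = 0.00752, and not called without replicate 2), and the later steps of -0.10 and -0.09 were not called. It stayed at 8.09-fold, 7.47-fold and 7.08-fold of untreated at 1, 2 and 4 h.

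Under IL-4, Zfp36 showed no such jump. The replicates were 181, 172 and 212 at 0.5 h, 200, 186 and 174 at 1 h, 187, 218 and 182 after 2 h, and 223, 260 and 349 at 4 h, which overlap the untreated samples at every time. The differences from untreated ran from -0.29 to 0.25 (log2, SE 0.20) and none passed the test (limma, adjusted p = 0.354 to 0.451). The course as a whole had an adjusted p of 0.134, which becomes 0.0463 when the replicate number enters as a block. At 4 h the samples stood 0.54 (log2) above those of 0.5 h, with an adjusted p of 0.0618, or 0.0214 with the block.

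Zfp36l1 (ENSMUSG00000021127, 2 exons at chr12:80107760-80113013) encodes BRF1, which binds the same elements. Its values were 187, 194 and 207 in untreated cells and 206, 244 and 268 at 0.5 h of LPS, and then 69, 54 and 61 at 1 h, 5, 11 and 14 after 2 h, and 8, 8 and 18 at 4 h. At 0.5 h the groups overlapped and the log2 difference of 0.28 was not called (adjusted p = 0.483; -0.23 at equal totals). From 1 h on, no LPS sample reached the untreated range. The gene fell by 1.67, 4.26 and 4.09 (log2, SE 0.32) at 1, 2 and 4 h, with adjusted p-values of 0.00032, 1.18e-08 and 1.91e-08, which are 3.20-fold, 19.6-fold and 17.3-fold lower means. The steps down from 0.5 to 1 h (-1.95, adjusted p = 0.000126) and from 1 to 2 h (-2.60, adjusted p = 7.14e-06) were called, and that from 2 to 4 h (0.17, adjusted p = 0.767) was not.

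With IL-4, Zfp36l1 stood at 263, 181 and 217 at 0.5 h, 221, 182 and 176 at 1 h, 285, 193 and 211 after 2 h, and 303, 333 and 325 at 4 h. At 4 h alone the replicates cleared the untreated range, 1.63-fold above it on average (log2 0.71, SE 0.15, adjusted p = 0.00353). That call was lost with fewer replicates, the adjusted p being 0.0543 without replicate 2, 0.0836 without replicate 3 and 0.0587 with both averaged. The earlier differences, 0.15, -0.03 and 0.21, were not called. The step of 0.50 from 2 to 4 h passed with the block only (adjusted p = 0.0804, or 0.0189 with the block).

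Zfp36l2 (ENSMUSG00000045817, 2 exons at chr17:84183924-84187947) encodes BRF2, the family's other AU-rich element binder in these cells. It was the one member of the family that moved early and down after both stimuli. Its values were 138, 113 and 139 in untreated cells, 38, 20 and 19 at 0.5 h of LPS, 25, 10 and 13 at 1 h, 7, 3 and 5 after 2 h, and 6, 4 and 3 at 4 h. All LPS samples lay far below the untreated ones, in which the lowest was 113. The log2 changes were -2.36, -3.04, -4.50 and -4.65 (SE 0.38, adjusted p = 8.48e-05, 4.61e-06, 4.25e-08 and 2.91e-08), for means 5.06-fold, 8.12-fold, 26.0-fold and 30.0-fold lower. A further fall of 1.46 (log2) from 1 to 2 h was called (adjusted p = 0.00491, or 0.0524 without replicate 3), and that of 0.68 from 0.5 to 1 h was not unless the replicates were blocked (adjusted p = 0.149, or 0.041 with the block).

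IL-4 took Zfp36l2 to a similarly low level at 0.5 h, 24, 24 and 25, after which it returned, with 37, 28 and 26 at 1 h, 54, 46 and 48 after 2 h, and 115, 91 and 94 at 4 h. Only the highest 4 h sample entered the untreated range. The fall was 2.36, 2.07 and 1.38 (log2, SE 0.15) at 0.5, 1 and 2 h (adjusted p = 1.79e-07, 2.86e-07 and 1.14e-05), and the remaining difference of -0.38 at 4 h had an adjusted p of 0.0834, or 0.0339 with the block. The return was itself called, by 0.70 from 1 to 2 h (adjusted p = 0.00954), by 1.00 from 2 to 4 h (0.00154), both lost without replicate 2 (0.176 and 0.115) or replicate 3 (0.258 and 0.143), and by 1.99 (log2), or 4.11-fold, from 0.5 to 4 h (7.86e-07). At 0.5 h the direct comparison of LPS with IL-4 gave a difference of 0.00 with a 95% interval of -0.62 to 0.63.

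The endonuclease genes rose after both stimuli, in different proportions. Zc3h12a (ENSMUSG00000042677, 6 exons at chr4:125118414-125127881) encodes Regnase-1, which cuts Il6 and other cytokine mRNAs. Its values were 69, 48 and 73 in untreated cells, 279, 254 and 242 at 0.5 h of LPS, 365, 330 and 367 at 1 h, 253, 207 and 219 after 2 h, and 253, 227 and 222 at 4 h. With IL-4 they were 288, 262 and 247 at 0.5 h, 280, 257 and 243 at 1 h, 211, 222 and 242 after 2 h, and 172, 225 and 252 at 4 h. No stimulated sample of either kind overlapped the untreated ones. The log2 changes were 2.03, 2.49, 1.84 and 1.89 with LPS (SE 0.15, adjusted p = 2.79e-08, 1.68e-09, 3.29e-08 and 2.4e-08) and 2.07, 2.04, 1.83 and 1.76 with IL-4 (SE 0.16, adjusted p = 8.69e-07, 5.63e-07, 1.33e-06 and 2.46e-06). As folds these are 4.08, 5.59, 3.57 and 3.69 with LPS and 4.19, 4.11, 3.55 and 3.42 with IL-4. The LPS course had a small peak at 1 h, up by 0.45 (log2) from 0.5 h and down by 0.65 to 2 h (adjusted p = 0.0203 and 0.00239). Leaving out replicate 2 or replicate 3 ended the first of these calls, and leaving out replicate 3 the second. No step between times was called with IL-4.

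Zc3h12c (ENSMUSG00000035164, 6 exons at chr9:52109569-52168406) encodes a Regnase family member that also restrains macrophage inflammation, and had the largest fold change of the 9 genes. Its values were 220, 165 and 175 in untreated cells, 10187, 9069 and 8194 at 0.5 h of LPS, 6524, 6047 and 5952 at 1 h, 3394, 3143 and 3147 after 2 h, and 2783, 2485 and 2507 at 4 h. The LPS groups overlapped neither the untreated group nor each other. The log2 changes were 5.61, 5.05, 4.12 and 3.80 (SE 0.12, adjusted p = 2.34e-14, 5.15e-14, 2.78e-13 and 6.91e-13), for 49.0-fold, 33.1-fold, 17.3-fold and 13.9-fold higher means. The decline was called from 0.5 to 1 h (-0.56, adjusted p = 0.00102) and from 1 to 2 h (-0.94, 9.48e-06), and from 2 to 4 h with the block only (-0.32, adjusted p = 0.0663, or 0.00737 with the block).

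IL-4 raised Zc3h12c by far less. The values were 653, 331 and 299 at 0.5 h, 938, 509 and 511 at 1 h, 674, 510 and 510 after 2 h, and 795, 522 and 581 at 4 h, all above the untreated samples and highest in replicate 1 at each time. The log2 changes were 1.11, 1.75, 1.59 and 1.74 (SE 0.29, adjusted p = 0.0185, 0.000621, 0.00103 and 0.00057), for means up to 3.50-fold higher. The 0.5 h call was lost without replicate 2 (adjusted p = 0.18) or replicate 3 (0.123) and with no filter on low values (0.073). With the block the 4 h level was also above that at 0.5 h, by 0.63 (log2, adjusted p = 0.133, or 0.00128 with the block), as was the 1 h level, by 0.64 (0.231, or 0.00374).

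The Roquin genes moved by less. Rc3h1 (ENSMUSG00000040423, 20 exons at chr1:160906411-160974976) encodes Roquin-1, a RING-finger protein that binds stem-loops. Its values were 399, 417 and 446 in untreated cells, 234, 237 and 236 at 0.5 h of LPS, 674, 693 and 722 at 1 h, 539, 518 and 490 after 2 h, and 382, 427 and 432 at 4 h. The 0.5 h samples lay below and the 1 h and 2 h samples above all untreated ones, and the 4 h samples overlapped them. The gene fell by 0.83 (log2, SE 0.09, adjusted p = 3.27e-06) at 0.5 h and was 0.73 above untreated at 1 h (adjusted p = 8.13e-06), 0.29 at 2 h (0.0132) and -0.02 at 4 h (0.835). At equal totals the 1 h difference was 0.15 and not called (adjusted p = 0.196), and those at 2 and 4 h were -0.36 and -0.63. The 2 h call was also lost without replicate 2 or 3. The rise from 0.5 to 1 h, 1.56 (log2) or 2.95-fold, does not rest on the untreated samples (adjusted p = 9.82e-09). With IL-4, Rc3h1 read 339, 350 and 339 at 0.5 h, below the untreated range, and 384 to 475 at the later times. The 0.5 h difference was -0.29 (SE 0.08, adjusted p = 0.0238, lost without replicate 2 or 3), and the later ones, 0.01, 0.12 and 0.01, were not called.

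Rc3h2 (ENSMUSG00000075376, 20 exons at chr2:37370069-37422903) encodes Roquin-2, which overlaps in function with Roquin-1. Its values were 299, 357 and 362 in untreated cells, 192, 304 and 272 at 0.5 h of LPS, 394, 565 and 560 at 1 h, 415, 516 and 458 after 2 h, and 367, 494 and 507 at 4 h. Replicate 1 was the lowest in each of these groups. The log2 differences were -0.43, 0.56, 0.45 and 0.42 (SE 0.19, adjusted p = 0.0692, 0.0168, 0.0483 and 0.0663), and with the block the first and last passed as well (0.00175 and 0.00169). The 1 h and 2 h calls were lost without replicate 2 (0.12 and 0.205) or replicate 3 (0.133 and 0.147) and with no filter on low values. At equal totals the last 3 turned to -0.02, -0.21 and -0.19. As in Rc3h1, the rise from 0.5 to 1 h was called, 0.99 (log2) or 1.98-fold (adjusted p = 0.000476). With IL-4 the values ran from 286 to 394, overlapped the untreated ones at every time but 4 h, where they were 376 to 385, and gave no called difference (0.17 at most, SE 0.12, course adjusted p = 0.558). The rise of 0.23 from 0.5 to 4 h passed with the block only (adjusted p = 0.192, or 0.04).

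N4bp1 (ENSMUSG00000031652, 7 exons at chr8:86841139-86885258), whose protein is cleaved by the paracaspase MALT1 and by caspase-8, climbed through the LPS course. The values were 216, 183 and 203 in untreated cells, 873, 928 and 890 at 0.5 h, 2022, 1722 and 1682 at 1 h, 2415, 2431 and 2468 after 2 h, and 2601, 2380 and 2297 at 4 h. Only the 2 h and 4 h groups overlapped each other. The log2 changes were 2.16, 3.16, 3.60 and 3.59 (SE 0.10, adjusted p = 1.44e-10, 1.1e-12, 2.07e-13 and 2.4e-13), for 4.47-fold, 9.01-fold, 12.2-fold and 12.1-fold higher means. The steps of 1.01 from 0.5 to 1 h (adjusted p = 1.03e-06) and 0.44 from 1 to 2 h (0.0023, lost without replicate 2 or 3) were called. A predicted gene on the same strand, Gm33877, overlaps N4bp1 and read 8 to 9 in untreated cells and 20 to 100 after LPS. How reads common to both were assigned is not given in the sources used here, and their part in the result was not tested.

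With IL-4, N4bp1 ran the opposite course and was highest at the start. The values were 455, 467 and 515 at 0.5 h, 416, 514 and 427 at 1 h, 346, 340 and 390 after 2 h, and 271, 304 and 269 at 4 h, all above the untreated samples. The log2 changes of 1.25, 1.17, 0.84 and 0.49 (SE 0.10) were called (adjusted p = 1.25e-06, 1.42e-06, 2.69e-05 and 0.00248), the last of them not without replicate 2 (0.0659). The decline from 0.5 to 4 h, -0.77 (log2), had an adjusted p of 8.06e-05. Its parts of -0.33 from 1 to 2 h and -0.35 from 2 to 4 h passed with the block only (adjusted p = 0.0549 and 0.0601, or 0.0323 and 0.0305).

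Elavl1 (ENSMUSG00000040028, 6 exons at chr8:4284782-4325100) encodes HuR, the one stabiliser among the 9 proteins, and its changes were small. Its values were 214, 181 and 208 in untreated cells, 301, 241 and 260 at 0.5 h of LPS, 349, 304 and 298 at 1 h, 235, 248 and 251 after 2 h, and 234, 258 and 235 at 4 h, all above the untreated ones. The log2 differences were 0.41, 0.65, 0.29 and 0.27 (SE 0.12, adjusted p = 0.00894, 0.000194, 0.0449 and 0.0575, the last 0.0406 with the block). The 0.5 h and 2 h calls were lost without replicate 2 (0.0845 and 0.332) or replicate 3 (0.0756 and 0.199). At equal totals they became -0.10, 0.07, -0.37 and -0.34, so that their direction at 0.5, 2 and 4 h depends on the scaling. With IL-4 the values were 200 to 259 in all, and the differences of 0.15 to 0.25 were not called (SE 0.10, course adjusted p = 0.275).

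Over the 9 genes the LPS course took 5 up and 2 down at 0.5 h, in a background of 19.6% and 34.4% of tested genes called higher and lower. At 1 h it was 7 up and 2 down (24.8% and 39% of all genes), at 2 h again 7 and 2 (26.9% and 39%), and at 4 h 4 and 2 (25.9% and 37.6%). The median log2 difference of the 9 was 0.41, 0.73, 0.45 and 0.42 at these times, beside the -0.24 to -0.30 of all tested genes. At equal totals this median turned to -0.10, -0.21 and -0.19 at 0.5, 2 and 4 h and was 0.15 at 1 h, and the calls were 4 up and 3 down, 4 and 2, 4 and 4, and 4 and 4. Between times, 7 of the 9 genes moved from 0.5 to 1 h (background 49.7%), 7 from 1 to 2 h (43.3%) and 1 from 2 to 4 h (22.9%). The last was Rc3h1, by -0.32 (adjusted p = 0.0238), and it was lost in the alternatives that leave out any 1 replicate. From 0.5 to 4 h, 7 of the 9 differed (63% of all genes).

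Under IL-4, 3 genes were up and 2 down at 0.5 h (background 8.15% and 8.14%), 3 up and 1 down at 1 h (11.1% and 9.83%), 3 up and 1 down at 2 h (14.3% and 13.2%) and 4 up and none down at 4 h (13.4% and 12.5%). The genes that were up at every time were Zc3h12a, Zc3h12c and N4bp1, and Zfp36l1 joined them at 4 h. The median log2 difference of the 9 was 0.15, 0.01, 0.21 and 0.25, beside -0.02 to 0.02 for all tested genes. Each single step moved 1 gene: Rc3h1 from 0.5 to 1 h (0.30, adjusted p = 0.0373, background 7.82%), and Zfp36l2 from 1 to 2 h (9.4%) and from 2 to 4 h (5.48%). From 0.5 to 4 h, 4 genes differed (27.3%). The LPS and IL-4 comparisons share the untreated samples, so the map of fold changes sets their values side by side only.

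**Figure D2:**
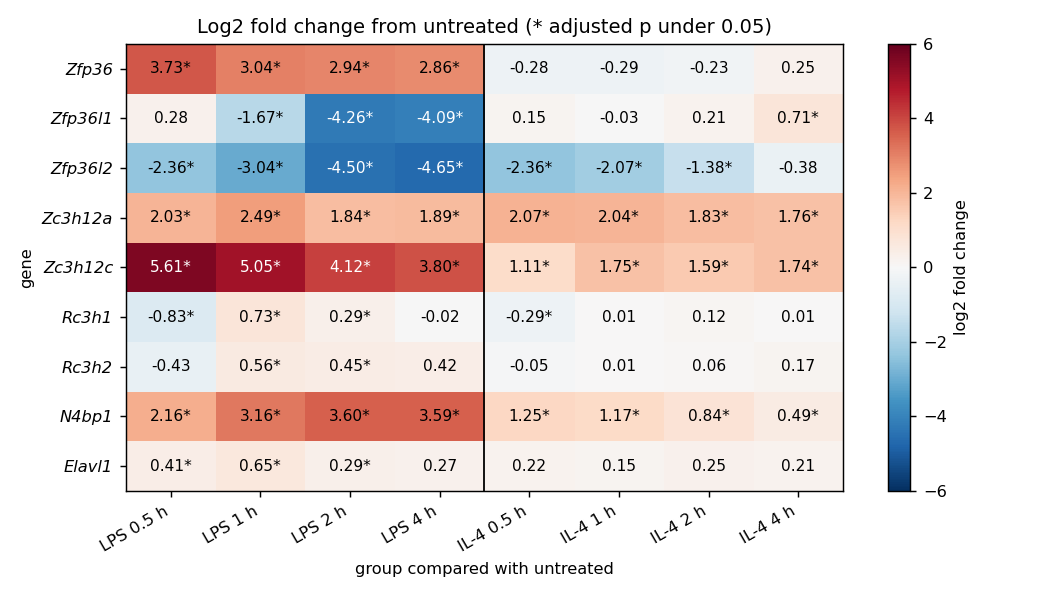
Log2 fold change from untreated of each gene (vertical axis) in the 4 LPS and 4 IL-4 groups (horizontal axis), with red above and blue below 0 and an asterisk where the limma adjusted p was under 0.05. Values run from 5.61 (Zc3h12c, LPS 0.5 h) to -4.65 (Zfp36l2, LPS 4 h). The LPS differences of Elavl1 at 0.5, 2 and 4 h, Rc3h2 from 1 h, Rc3h1 at 2 h and Zfp36l1 at 0.5 h turn negative when samples are rescaled to equal totals.

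The direct comparison of LPS with IL-4 at the same time asks which regulators tell the stimuli apart, and does not use the untreated samples. At 0.5 h, 3 genes were higher with LPS and 1 lower (background 18% and 35.8%). At 1 h all 9 differed, 7 higher and 2 lower (24% and 40.5%), at 2 h 4 were higher and 2 lower (26.4% and 42.3%), and at 4 h 3 and 2 (26.1% and 41.9%). The median tested gene differed by -0.23 to -0.36 (log2) and the median of the 9 genes by 0.13, 0.55, 0.18 and 0.13. At equal totals the latter turned to -0.26, -0.45 and -0.49 at 0.5, 2 and 4 h and was 0.07 at 1 h, and 3, 4, 3 and 3 genes were higher and 3, 2, 5 and 5 lower. Zfp36 was higher with LPS by 4.02, 3.34, 3.17 and 2.60 (log2, adjusted p = 1.23e-14, 1.56e-13, 2.24e-13 and 7.6e-12), or 16.3-fold at 0.5 h and 6.04-fold at 4 h. Zc3h12c followed with 4.50, 3.30, 2.52 and 2.05 (1.14e-13 to 3.64e-08), a gap that narrowed, whereas that of N4bp1 widened from 0.91 through 2.00 and 2.76 to 3.10 (3.94e-08 to 3.51e-18).

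The remaining BRF genes differed in the other direction. Zfp36l1 was lower with LPS by 1.64, 4.47 and 4.80 (log2) at 1, 2 and 4 h (adjusted p = 1.14e-05, 5.08e-13 and 1.24e-13), 28.3-fold at 4 h, and at 0.5 h the difference of 0.13 (-0.26 at equal totals) had an interval of -0.43 to 0.68. Zfp36l2 was lower by 3.12 and 4.27 at 2 and 4 h (2.48e-09 and 8.37e-12), and by 0.96 at 1 h (0.00732), a call that did not hold without replicate 2 or 3 or after median-of-ratios rescaling (adjusted p = 0.0708). At 0.5 h no difference between the stimuli was called in Zfp36l2 on any scale. It was 0.00 as deposited, 0.25 after median-of-ratios rescaling (adjusted p = 0.541) and -0.36 at equal totals (0.288).

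As for Elavl1, a difference between the stimuli was called at 1 h alone in Zc3h12a on the deposited scale. The LPS minus IL-4 difference was -0.04 (95% interval -0.33 to 0.25), 0.44 (0.15 to 0.74), 0.01 (-0.29 to 0.30) and 0.13 (-0.17 to 0.42) from the earliest to the latest time, and only that at 1 h was called (adjusted p = 0.00877, lost without replicate 3). On the equal-totals scale these became -0.42, -0.03, -0.62 and -0.49, called at 0.5, 2 and 4 h (adjusted p = 0.0106, 0.000287 and 0.00258). After median-of-ratios rescaling they were 0.22, 0.74, 0.29 and 0.42, called at 1 and 4 h (adjusted p = 0.000233 and 0.021). The likeness of the responses to LPS and IL-4 away from 1 h thus depends on the scaling. At 0.5 and 2 h no difference was called on the deposited or median-of-ratios scale, and at 4 h on the deposited scale only. Rc3h1 was lower with LPS at 0.5 h (-0.54, adjusted p = 1.02e-05) and higher at 1 h (0.72, 1.04e-07). At 2 and 4 h its differences of 0.18 and -0.03 were not called, and both rescalings gave calls, in opposite directions. They were -0.45 and -0.66 at equal totals (adjusted p = 6.19e-05 and 4.25e-07) and 0.46 and 0.26 after median-of-ratios rescaling (0.000128 and 0.017). Rc3h2 was higher at 1 h (0.55, adjusted p = 0.00653) and at 2 h (0.39, 0.0439, but -0.24 at equal totals), calls that were lost without replicate 2 (0.114 and 0.194) or replicate 3 (0.0582 and 0.149). With the block its differences at 0.5 h (-0.37) and 4 h (0.24) passed too (0.00302 and 0.0393). The 4 h difference turned to -0.38 at equal totals and was called at 0.53 after median-of-ratios rescaling (adjusted p = 0.00299). On the deposited scale Elavl1 was higher at 1 h alone (0.51, adjusted p = 0.000292, not called at equal totals). Its differences of 0.19, 0.04 and 0.06 at 0.5, 2 and 4 h turned to -0.20, -0.59 and -0.56 at equal totals. After median-of-ratios rescaling these 3 were 0.44, 0.32 and 0.35 and were called higher too (adjusted p = 0.00235, 0.0177 and 0.00998).

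**Figure D3:**
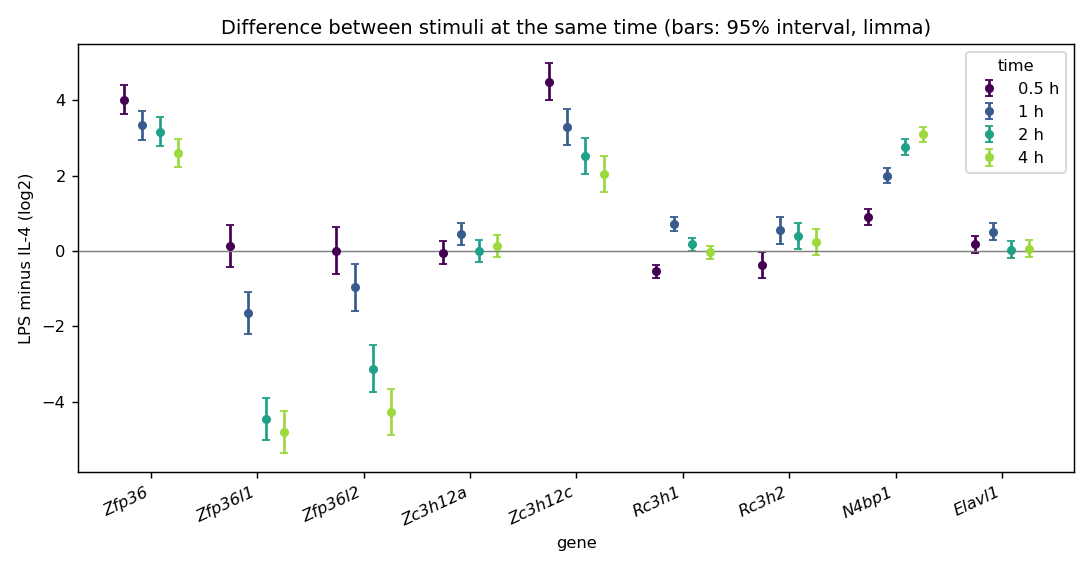
LPS minus IL-4 difference (log2, vertical axis) of each gene by time (0.5, 1, 2, 4 h), from dark to light points, with 95% intervals from limma. Zfp36, Zc3h12c and N4bp1 lie above 0 at all 4 times, Zfp36l1 reaches -4.80 and Zfp36l2 -4.27 at 4 h, and the intervals of Zc3h12a cross 0 at 0.5, 2 and 4 h. At equal totals the small positive values of Zc3h12a from 1 h, of Elavl1 at 0.5, 2 and 4 h, of Rc3h2 at 2 and 4 h, of Rc3h1 at 2 h and of Zfp36l1 at 0.5 h turn negative. After median-of-ratios rescaling, Elavl1 is called higher with LPS at all 4 times and Rc3h1 at 1, 2 and 4 h.

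Levels can be set against each other only per length. Per kilobase of gene, the mean normalised read count in untreated cells was 96.8 for Zfp36, 37.3 for Zfp36l1, 32.3 for Zfp36l2, 6.69 for Zc3h12a, 6.42 for Rc3h2, 6.14 for Rc3h1, 4.99 for Elavl1, 4.55 for N4bp1 and 3.17 for Zc3h12c. The ZFP36 genes, which are short, stood highest at rest on this scale, and the neighbours from Zc3h12a to N4bp1 in this order lie close together. Per kilobase of spliced transcript Zfp36 (134) and Zfp36l1 (65.7) still led, while Zfp36l2 (36.8) lay beside Rc3h1 (38.2) and Rc3h2 (37.8). At 0.5 h of LPS, Zfp36 stood at 1254 per kilobase and Zc3h12c at 156. Whether intronic reads were counted is not given in the sources used here, and per kilobase of spliced transcript these means were 1737 and 1024, so the order of the genes and the gaps between them depend on the length used.

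Similar time courses were looked for by Pearson's r of group means over the 9 groups, among 6819 genes, as a description in which the points share libraries and untreated cells. The 3 most like Zfp36 were Gm11843 (0.995), Psd (0.993), which overlaps Nfkb2, and Junb (0.993), and 159 genes reached 0.95. For Zfp36l1 they were Kat6b (0.998), Suclg2 (0.995) and Tnrc6b (0.995), with 220 genes at 0.95 or more. N4bp1 had Sav1 (0.992), Gm3086 (0.990), which overlaps Sav1, and Pgs1 (0.990), with 94 such genes, and Zc3h12c had Sdc4 (0.985), Tmem123 (0.984) and Pim1 (0.979), with 45. Few genes resembled the others. Rc3h2 had Ireb2 (0.990), Ppp4r3a (0.974) and Gm46043 (0.971), Zfp36l2 had Dzip3 (0.977), Haus3 (0.966) and Def6 (0.964), Rc3h1 had Smad4 (0.977), Rbm12 (0.967) and Pmpca (0.965), and Elavl1 had Eif3h (0.967), Dlst (0.956) and Gm36215 (0.943). For Zc3h12a, with Rnf19b (0.942), Tm2d1 (0.903) and Glrx (0.886), no gene reached 0.95. Within the set, r was 0.943 for Zfp36 and Zc3h12c, 0.883 for Rc3h1 and Rc3h2, 0.870 for Zfp36l1 and Zfp36l2 and -0.953 for N4bp1 and Zfp36l2.

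The machinery these proteins call on was followed through lists of its genes. Of 18 genes for deadenylation, the removal of the poly(A) tail by CCR4-NOT and PAN2-PAN3 with their adaptors, 17 were tested, and 2 were higher and 9 lower at 0.5 h of LPS, 5 and 9 at 1 h, 1 and 12 after 2 h, and 1 and 8 at 4 h. Over all tested genes 19.6%, 24.8%, 26.9% and 25.9% were higher and 34.4%, 39%, 39% and 37.6% lower at these times, the shares to read each list against. At 2 h, median-of-ratios rescaling gave 3 up and 8 down, whereas equal totals gave 0 up and 15 down. Their median log2 difference was -0.49 to -0.70, below the -0.24 to -0.30 of all tested genes. Btg2, an antiproliferative gene whose protein stimulates the deadenylase, rose from 32.7 ± 12.2 to 170 ± 21.7 at 0.5 h (SD, n = 3, log2 2.40, SE 0.28, adjusted p = 4.30e-06). Cnot6l, a catalytic subunit, fell from 954 ± 84.1 to 179 ± 12.4 at 1 h (log2 -2.40, SE 0.16, adjusted p = 5.95e-09).

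Of 14 decapping genes 13 were tested, and the list moved from mostly lower to mostly higher: 2, 6, 7 and 6 genes were called up and 9, 4, 2 and 3 down at the successive times. The medians were -0.52, -0.03, 0.41 and 0.27, of which the last 2 became -0.25 and -0.34 at equal totals, with 4 genes up and 5 down at 2 h and 3 and 4 at 4 h. Dcp2, the decapping enzyme, rose from 163 ± 25.2 to 1376 ± 113 at 2 h (log2 3.08, SE 0.17, adjusted p = 4.02e-10), while Dcp1b, encoding a cofactor, fell from 114 ± 9.29 to 33.3 ± 11.02 (log2 -1.80, SE 0.33, adjusted p = 0.000198). None of the 14 tested of 15 exosome genes, which encode the 3′-to-5′ exonuclease complex and its SKI partners, was called higher after LPS at any time, and 10, 7, 3 and 5 were lower. Their median was -1.19 at 0.5 h and -0.21 at 2 h. The latter was 0.02 after median-of-ratios rescaling, under which 2 of them were higher over the course. The SKI subunit gene Ttc37 fell from 175 ± 16.1 to 37.7 ± 8.08 at 1 h (log2 -2.20, SE 0.22, adjusted p = 5.60e-07).

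Other RNA-binding proteins of the pathway, 15 tested of 16, were 2 higher and 6 lower at 0.5 h of LPS, 9 and 2 at 1 h, 7 and 4 after 2 h, and 5 and 3 at 4 h, with medians of -0.32, 0.46, 0.28 and 0.22. The last 3 were -0.12, -0.38 and -0.39 at equal totals, with 3 higher and 3, 9 and 10 lower. Igf2bp2, which encodes an mRNA-stabilising protein, rose from 57.3 ± 15.04 to 654 ± 136 at 4 h (log2 3.50, SE 0.20, adjusted p = 3.71e-10). Zc3h12d, a further Regnase paralog, fell from 320 ± 65.2 to 52.0 ± 4.36 at 1 h (log2 -2.58, SE 0.23, adjusted p = 1.06e-07), opposite to Zc3h12a and Zc3h12c. Of the 10 upstream regulators, which act on the 9 proteins or their kinases, 6, 8, 8 and 7 were called up and 3, 2, 2 and 2 down at the successive times. At equal totals 6, 6, 5 and 5 of them were up and 4, 3, 2 and 2 down. Dusp1, the phosphatase that switches off p38, rose from 25 ± 12.8 to 1848 ± 375 at 0.5 h (log2 6.25, SE 0.34, adjusted p = 9.19e-10), and Mapk14, which encodes p38α, fell from 890 ± 25.2 to 140 ± 9.54 at 4 h (log2 -2.66, SE 0.10, adjusted p = 6.24e-12).

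Known target transcripts of the regulators were too low at rest to be counted as a list. Of 16 genes 14 were tested, and 11 of these passed the filter on low values through the LPS samples only, so that a higher value with LPS was fixed by the filter. The other 3, the chemokine gene Ccl3 with Nfkbiz and Ier3, were called higher with LPS at all 4 times on the deposited scale. Nfkbiz, which encodes the atypical inhibitor protein IκBζ, rose by 6.27 (log2) at 0.5 h (adjusted p = 2.34e-14) and Ier3, an immediate early gene, by 2.60 (6.58e-07). As an example of the 11, Ptgs2, the inducible cyclooxygenase, read 1, 3 and 1 in untreated cells and 1273, 2865 and 2772 at 4 h, at least 768-fold higher against a level of 3 for the untreated group.

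With IL-4 the lists had fewer calls than with LPS at most times, in a background of 8.15%, 11.1%, 14.3% and 13.4% higher and 8.14%, 9.83%, 13.2% and 12.5% lower. Of the deadenylation genes 1 was up and 6 were down at 0.5 h, against 3 up and 0 down at 4 h, with Pan3, encoding the regulatory subunit of PAN2-PAN3, up from 2046 ± 88.6 to 3997 ± 617 at 2 h (SD, n = 3, log2 0.95, SE 0.12, adjusted p = 5.94e-05) and Tob2, an adaptor, lower at 0.5 h (log2 -0.89, adjusted p = 0.00167). Of the exosome genes none was called at 0.5 or 1 h, and 6 were higher and none lower at 2 h, when the list's median was 0.40. Exosc5 was among them, with 39.0 ± 9.17 in untreated cells and 62.3 ± 7.02 at 2 h (log2 0.68, SE 0.16, adjusted p = 0.00627). The decapping genes had at most 2 called in either direction at any time, among them Patl1, a scaffold of the decapping complex (log2 1.08 at 1 h, adjusted p = 1.72e-06), and Ddx6, an RNA helicase that links deadenylation to decapping (log2 -0.27 at 0.5 h, adjusted p = 0.0301, not called after median-of-ratios rescaling).

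Arid5a, which encodes a protein that shields Il6 mRNA from Regnase-1, rose from 87.0 ± 2.65 to 221 ± 5.00 at 0.5 h of IL-4 (log2 1.33, SE 0.08, adjusted p = 1.79e-07), beside the rise of Zc3h12a at that time. Zc3h12d was lower at 4 h (log2 -0.92, adjusted p = 0.00328). Of these other RNA-binding proteins 1, 1, 3 and 1 were called up and 2, 1, 1 and 2 down at the successive times. Of the upstream regulators 2 were up and 0 down at 0.5 h, against 1 up and 5 down at 2 h, where Mapkapk2, the p38-activated kinase that phosphorylates TTP, went from 654 ± 101 to 329 ± 70.5 (log2 -0.996, SE 0.25, adjusted p = 0.00835) and the deubiquitinase gene Usp10 was higher (log2 0.82, adjusted p = 0.00323). Nfkbiz fell from 211 ± 18.8 to 30.0 ± 7 at 2 h (log2 -2.80, SE 0.20, adjusted p = 2.06e-07), and Ier3 rose from 13.3 ± 3.06 to 57.7 ± 14.6 at 4 h (log2 2.03, SE 0.22, adjusted p = 1.20e-05). The directions of the pathway genes given with values were the same under both rescalings.

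**Figure D4:**
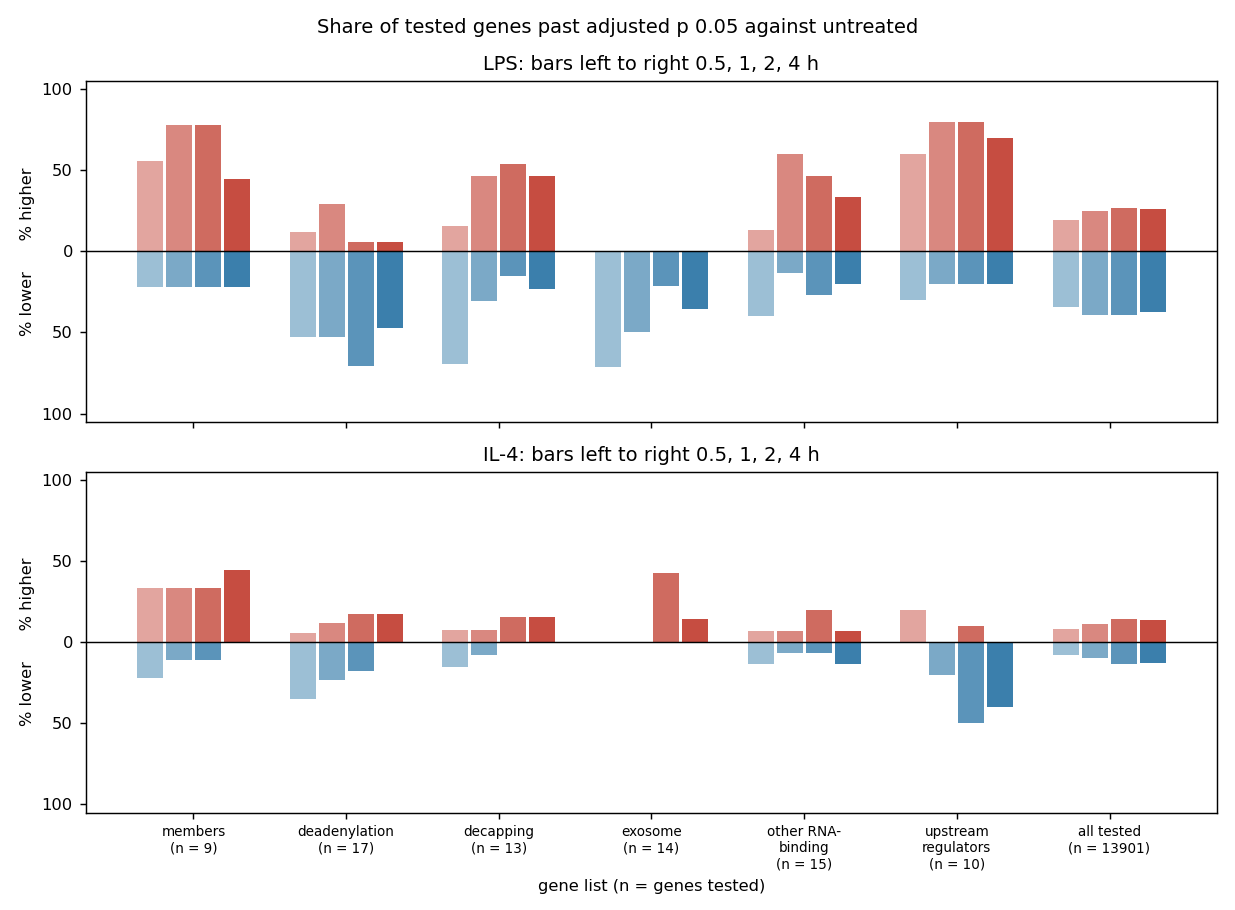
Percent of tested genes called higher (red, upwards) and lower (blue, downwards) against untreated by time (0.5, 1, 2, 4 h, bars from left to right) for the 9 genes, 5 pathway lists and all 13901 tested genes, with LPS above and IL-4 below. With LPS no exosome gene is higher (1 is at 1 h and at 4 h after median-of-ratios rescaling), while 7 of the 9 genes are higher at 1 h and 2 h (4 of 9 at equal totals), and at equal totals the medians of the decapping list at 2 and 4 h and of the other RNA-binding proteins from 1 h turn negative.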

How the data were processed

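The study sequenced chromatin-associated RNA from 27 samples. The authors deposited 1 table of normalised read counts, for which their processing notes name TopHat2 2.1.1, bedtools 2.29.2, DESeq2 and R 3.6.2 with the mm10 build. Reads were counted per RefSeq gene, scaled by factors from genes that did not vary, and deposited as whole numbers, a score that is no raw count and carries no depth. Whether counting used strand or introns is not given in the sources used here.

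Genes with at least 10 in at least 3 of 27 samples were kept (13901 of 45070, with 99.6% of all values), values were transformed to log2(value + 1), which understates changes of low genes, and limma 3.58.1 in R 4.3.3 was fitted with an intensity trend. A gene was called at a Benjamini-Hochberg adjusted p under 0.05 over all tested genes. Each course was fitted with its 12 stimulated and 3 untreated samples, and LPS was set against IL-4 in a fit of all 27. The code was tested on simulated data. The block adds the replicate number to the model. In 6827 genes all 108 correlations of same-numbered deviations, over 36 pairs of groups, exceeded 0.1 (0.163 to 0.851). In only 13 of the 36 pairs did every replicate correlate best with its own number. Replicate 1 stood apart in every group, so these correlations cannot show that the other replicates are paired by number. Results with the block take that pairing as given.

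The 9 genes and the pathway and marker lists were chosen with earlier results of these data known. Named genes are all 9, their 3 most similar genes and, for each pathway list and stimulus, the genes with the largest change in each direction among those called over the course. These pathway genes also needed a mean of at least 50 in the higher group. Their replicates at the peak time could not overlap the untreated ones, so that separation was a condition of the choice. Genes named for overlap, a floor or a marker value were added afterwards. Alternatives were a pseudocount of 8, no filter, a mean of at least 50, median-of-ratios and equal-total rescaling, each replicate left out, replicates 2 and 3 averaged, and the replicate block. Gene positions and transcripts came from RefSeq and GENCODE M21 on GRCm38.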

Additional observations from a re-analysis of the deposited data

Results flagged for a closer look

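The effect of LPS at 4 h differed from that at 0.5 h, by the test of the difference itself (limma, adjusted p under 0.05 over all genes), in 7 of the 9 genes, in a background of 63% of tested genes. It was lower at 4 h in Zfp36 (-0.88 on the log2 scale, adjusted p = 0.000951), Zfp36l1 (-4.37, 9.83e-09), Zfp36l2 (-2.29, 7.11e-05) and Zc3h12c (-1.82, 2.51e-09). It was higher at 4 h in Rc3h1 (0.81, adjusted p = 2.22e-06), Rc3h2 (0.84, 0.00113) and N4bp1 (1.43, 6.2e-09).

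The effect of IL-4 differed between the same times in 4 genes, in a background of 27.3%. It was higher at 4 h in Zfp36l1 (0.55, adjusted p = 0.0153), Zfp36l2 (1.99, 7.86e-07) and Rc3h1 (0.30, 0.0132), and lower in N4bp1 (-0.77, 8.06e-05). The calls of Zfp36l1 and Rc3h1 were lost without replicate 2 (adjusted p = 0.221 and 0.176) or replicate 3 (0.182 and 0.113). Zfp36l2 thus ended higher than at 0.5 h with IL-4 and lower with LPS, and N4bp1 did the reverse.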

How the results depend on the processing

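Over the 9 genes and 20 pairwise comparisons, 1634 of 1780 values under the alternatives kept their side of the threshold with no called value turning, 82 lost the call, 50 gained it and 14 that were called in either fit turned. Of the 1634, 57 that were called in neither fit also changed sign, 14 of them at equal totals. A pseudocount of 8 changed none, and Zfp36l2 was not tested at a mean of at least 50. Equal totals turned Elavl1 after LPS at 0.5 h (-0.10), 2 h (-0.37) and 4 h (-0.34), Rc3h2 at 1 h (-0.0193) and 2 h (-0.21) and Rc3h1 at 2 h (-0.36), and, in LPS against IL-4, Zc3h12a at 1 h (-0.0327), 2 h (-0.62) and 4 h (-0.49), Elavl1 at 2 h (-0.59) and 4 h (-0.56), and Rc3h1 (-0.45) and Rc3h2 (-0.24) at 2 h, which follows from the larger totals of the LPS samples. Median-of-ratios rescaling turned Rc3h1 in LPS against IL-4 at 4 h (0.26). It divided the LPS samples by 0.82 to 0.95 and the others by 1.02 to 1.15, which raises LPS values against IL-4 values. Counts of the 9 genes called moved with the replicates used. Leaving out each replicate, which gave the lowest counts without replicate 2 or 3 and the highest without replicate 1, gave 2 to 6 for LPS 2 h against 1 h, 0 to 1 for LPS 4 h against 2 h, 3 to 7 for the IL-4 course, 3 to 6 for IL-4 0.5 h, 2 to 6 for IL-4 4 h, 0 to 2 for IL-4 1 h against 0.5 h, 0 to 1 for 2 h against 1 h, 0 to 2 for 4 h against 2 h and 2 to 6 for 4 h against 0.5 h. With replicates 2 and 3 averaged, these comparisons gave 4 (LPS 2 h against 1 h), 0 (LPS 4 h against 2 h), 3 (IL-4 course), 3 (IL-4 0.5 h), 0, 0, 0 and 2 (the IL-4 steps in the same order). With the replicate block they gave 2 for LPS 4 h against 2 h, and for the IL-4 steps 2, 2, 3 and 7, and the block changed no other count by over 1.5 times and no other call than those given beside the results. Genes with a mean of at least 50 gave 2 for LPS 4 h against 2 h, equal totals gave 0 there and 8 for LPS against IL-4 at 4 h, where median-of-ratios gave 9, and the call of Rc3h1 at IL-4 1 h against 0.5 h was lost (0 genes) with median-of-ratios and with no filter. Over all genes, the IL-4 course called 5606, and 2234, 2169 and 2503 without replicate 2, without replicate 3 and with both averaged. Depth is unknown, so low values such as those of Zfp36l2 late in LPS carry no counting interval.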
